A study of Homo sapiens with 10 samples.

Results

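A set of 8 genes that restrain growth signalling or stress responses, and whose loss has been linked to drug resistance, were followed by their H3K27ac: NF1, LZTR1, STK11, TSC1, TSC2, KEAP1, KCTD5 and RB1. Every region that the deposited annotated table assigned to one of these symbols was taken, which gave 35 of 67387 annotated regions and 8 of 15633 genes. H3K27ac, the acetylation of lysine 27 on histone H3, was measured by ChIP-seq. The cells were H1975, a line established from a human lung adenocarcinoma and driven by mutant EGFR. DMSO cells were kept without drug for 21 days and then given DMSO for 3 days. Osimertinib DTP cells, drug-tolerant persisters, were held for 24 days in osimertinib at 500 nM, a drug that blocks mutant EGFR. Osimertinib DTP + AZD5153 cells, called the combination below, received 500 nM osimertinib for 21 days and then 150 nM AZD5153, a BET bromodomain inhibitor, for 3 days, and the labels leave unsaid whether osimertinib was kept on during those days. Each group had 3 libraries, described as biological replicates of this 1 cell line, and 1 pooled input library was shared by all groups.

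H3K27ac is deposited at active promoters and enhancers, where BET proteins read histone acetylation. The 8 genes sit at different points of growth control. NF1 speeds up the hydrolysis of GTP by RAS, and LZTR1 recruits RAS-family proteins to a CUL3 ubiquitin ligase. STK11 encodes the kinase LKB1, which activates AMPK, and the TSC1 and TSC2 proteins form the complex that holds RHEB and so mTORC1 in check. KEAP1 brings NRF2 to a CUL3 ligase for degradation, KCTD5 is another CUL3 adaptor, and RB1 binds E2F factors and blocks entry into S phase.

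Of the 35 regions, 18 lay within 1 kb of a transcription start site, 5 lay 1 to 3 kb from one and 12 lay farther away. STK11 held 16 regions, NF1 8, TSC1 5 and LZTR1 2, and the other genes had 1 each. Each region is 502 bp wide, so levels can be compared between regions without a length correction, and they are given here as CPM, counts scaled to a common library size after TMM normalization. Regions of a gene are numbered by their position on the chromosome, and library values are listed in the order of replicates 1, 2 and 3.

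Some libraries differed in ways that touch these values. The total count ranged from 6263443 to 10463351 per H3K27ac library. Replicate 3 of the combination had the lowest total and a Spearman correlation of 0.430 and 0.354 with the other replicates of its group, whereas all other pairs of replicates correlated at 0.818 to 0.898. Regions within 1 kb of a start site held 66.7% of the annotated counts in that library and 59.8% in replicate 2 of osimertinib DTP, against 40.3% to 45.9% in the other 7 libraries. Their part in the results below was not tested beyond leaving each library out, weighting libraries by quality and scaling them to their promoter total. Promoter regions were present for 8 of 8 markers of lung epithelium (the promoter sum of KRT8, a simple epithelial keratin, was 165.1 to 331 CPM), for 3 of 3 fibroblast markers at 2.79 to 117.5 CPM, for 1 of 2 endothelial markers (CDH5, at 10.5 to 49.0 CPM) and for 0 of 3 leukocyte markers. The input library held 3 to 32 reads in the 35 regions, from a total count of 1870885, lower than that of any H3K27ac library.

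The only regions of the 8 genes that passed the test were a pair of neighbouring sites inside TSC1, and both lost H3K27ac after osimertinib. With edgeR's quasi-likelihood test, adjusted over 157919 regions, 2 of the 35 regions were lower and 0 were higher in osimertinib DTP than in DMSO. Over all regions tested, 5.13% were lower and 5.58% higher. In the combination against DMSO, the same 2 regions were lower and 0 were higher, against 9.01% lower and 9.05% higher over all regions. The share of the 35 called lower was thus near that of all regions in osimertinib DTP and below it in the combination. An unadjusted p under 0.05 was reached by these 2 regions alone in the first comparison and by 4 of the 35 in the second. The others there were NF1 region 4 and STK11 region 4. Over all 157919 regions, 40895 and 50404 reached it, a larger share than among the 35 in both comparisons. DESeq2 also called 2 lower in each, where it called 9.76% and 11.9% of all regions lower. No region was called between the combination and osimertinib DTP, among the 35 or elsewhere (0.0% of all regions called). Over all regions, 7011 had an unadjusted p under 0.05 in that comparison (0 of the 35), and DESeq2 called 18 higher and 68 lower. Most of the other fold changes were positive: 28 of 35 in osimertinib DTP against DMSO, with a median log2 fold change of 0.39 against 0.15 over all regions, and 27 of 35 in the combination against DMSO, with a median of 0.71 against 0.23. Without replicate 3 of the combination, the latter became 18 of 35 with a median of 0.12 against −0.11, and without replicate 2 of osimertinib DTP the former became 21 of 35 with a median of 0.14 against 0.092. These comparisons share the DMSO libraries.

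**Figure D1:**
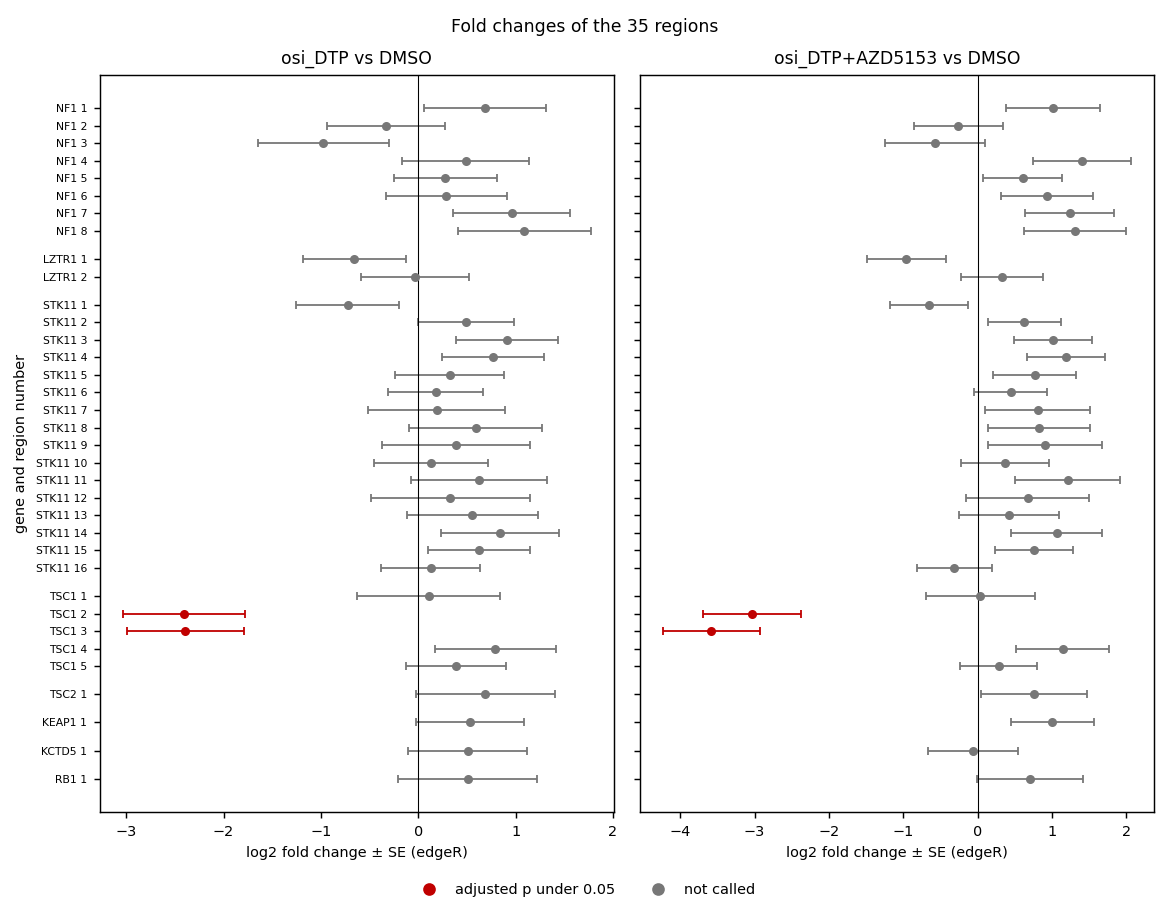
Log2 fold change on the x axis (edgeR, bars are ± 1 SE) of each of the 35 regions, by gene and region number on the y axis, for osimertinib DTP (osi_DTP) against DMSO on the left and the combination (osi_DTP+AZD5153) against DMSO on the right. TSC1 regions 2 and 3, in red, lie at −2.40 and −2.39 on the left and at −3.04 and −3.58 on the right, and no other region passed an adjusted p of 0.05.

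Counted without a test, all 3 osimertinib DTP libraries lay above all 3 DMSO libraries in 3 of the 35 regions and below them in 5, against 21.2% and 22.7% of all annotated regions. For the combination, 7 lay above and 5 below, against 18.6% and 21.1%. Fewer of the 35 regions thus separated the groups than the background share in each of these counts except the 7 that lay above. In the authors' peak lists, called per library, 23 of the 35 regions overlapped a peak in all 9 libraries and 12 in only some of them. A library had a peak in 27 to 34 of the 35 regions, the lowest number being that of replicate 3 of the combination.

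The TSC1 regions that fell lie 48 bp apart within the gene, at chr9:132936873-132937374 (region 2) and chr9:132937422-132937923 (region 3). TSC1 is transcribed from the minus strand, and the midpoints of these regions lie 8255 and 7706 bp past its RefSeq start. The annotation places them 1783 and 2332 bp upstream of a shorter TSC1 transcript, in the classes 1 to 2 kb and 2 to 3 kb from a start site. Region 2 held 40, 37 and 59 reads in the DMSO libraries, 11, 6 and 6 after osimertinib and 7, 4 and 2 in the combination. Region 3 held 81, 108 and 101 reads for DMSO, 25, 10 and 16 for osimertinib DTP and 11, 8 and 1 for the combination. In both regions every DMSO library was above every treated library. The input held 5 and 11 reads there, from a total count of 1870885, against at least 6263443 in the H3K27ac libraries. Input reads were not scaled for depth. Whether the treated counts lay above the background of the input was not tested. In such bulk libraries, fewer cells with the mark and less of the mark per cell cannot be told apart.

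The level of region 2 was 4.42 ± 1.26 CPM in DMSO (mean ± SD, n = 3), 0.823 ± 0.222 after osimertinib and 0.513 ± 0.162 in the combination. It fell 5.29-fold in osimertinib DTP (log2 fold change −2.40 ± 0.63, SE, edgeR adjusted p = 0.0219) and 8.2-fold in the combination (−3.04 ± 0.66, edgeR adjusted p = 0.00588). Region 3 was at 9.46 ± 1.96 CPM for DMSO, 1.78 ± 0.521 for osimertinib DTP and 0.736 ± 0.479 for the combination. It fell 5.25-fold (−2.39 ± 0.60, edgeR adjusted p = 0.0179) and 12-fold (−3.58 ± 0.65, edgeR adjusted p = 0.0023). Peak calls followed the counts from the same reads, with a peak over each region in 3 of 3 DMSO libraries and in 0 of 6 treated libraries.

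Between the combination and osimertinib DTP the difference was −0.63 ± 0.68 on the log2 scale in region 2 and −1.19 ± 0.64 in region 3, and neither passed (edgeR adjusted p = 1). All 3 combination libraries lay below all 3 osimertinib DTP libraries in region 3 but not in region 2. Against DMSO, the log2 values of both regions in osimertinib DTP stayed between −2.57 and −2.15 whichever library was left out, but most of these fits did not reach the threshold. For region 2 the call was lost when any DMSO or osimertinib DTP library was left out, with an adjusted p of up to 0.151 (without replicate 3 of DMSO). For region 3 it was lost without replicate 2 or 3 of DMSO or any osimertinib DTP library, with an adjusted p of up to 0.106. In the combination against DMSO, only the omission of replicate 3 of DMSO ended the call of region 2 (adjusted p = 0.0507), and region 3 stayed called in all 9 such fits (adjusted p of at most 0.0209). Without replicate 3 of the combination, both regions stayed called in both comparisons, where the share of all regions called lower was 12.7% for osimertinib DTP and 17.3% for the combination.

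**Figure D2:**
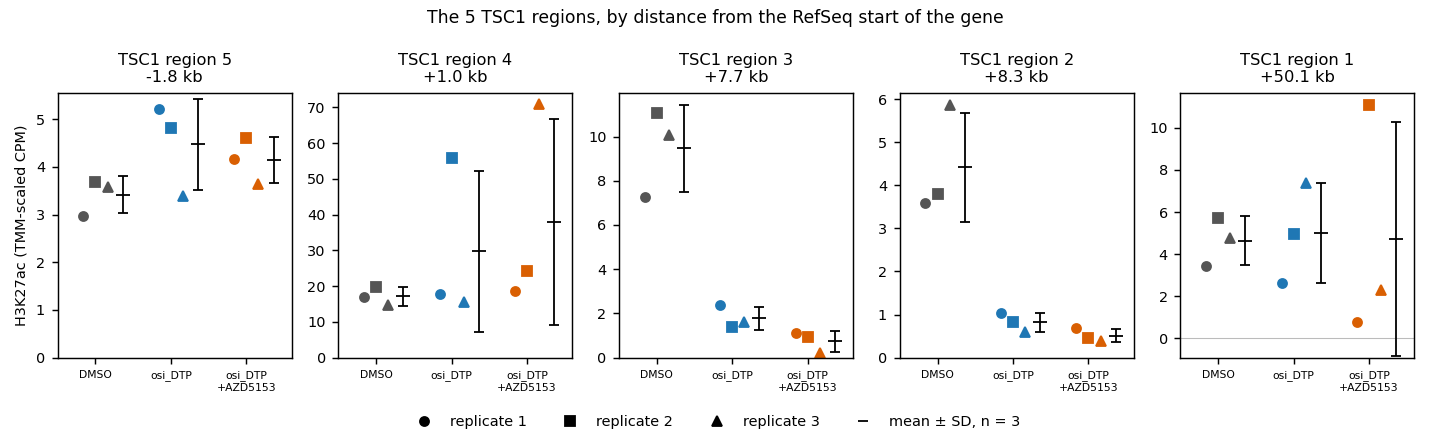
H3K27ac in TMM-scaled CPM (y axis, its own scale in each panel) at the 5 TSC1 regions, ordered by the distance of the region's midpoint from the RefSeq start of the gene. Points are libraries, with replicate shown by shape, and black bars are the mean ± SD of 3 libraries. In regions 3 and 2 every DMSO library is above every treated library, whereas in regions 5, 4 and 1 the groups overlap.

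The start-site region of TSC1 was not called in either comparison. Region 4, at chr9:132944145-132944646 and centred 983 bp past the RefSeq start, was at 16.8, 19.9 and 14.7 CPM for DMSO, 17.8, 55.8 and 15.6 for osimertinib DTP, and 18.7, 24.2 and 70.9 for the combination. Replicate 2 of osimertinib DTP and replicate 3 of the combination, the libraries with the highest promoter share, were the high values, and the groups overlapped. The log2 fold change was 0.79 ± 0.62 in osimertinib DTP (edgeR adjusted p = 0.468) and 1.14 ± 0.62 in the combination (edgeR adjusted p = 0.22). Region 1, near the 3′ end of the gene in the class 3′ UTR, was at 3.42, 5.73 and 4.78 CPM for DMSO, 2.65, 4.96 and 7.39 for osimertinib DTP, and 0.795, 11.1 and 2.3 for the combination. The groups overlapped, and its fold changes of 0.11 ± 0.73 and 0.03 ± 0.73 were not called. Region 5, 1780 bp upstream of the RefSeq start, stayed between 2.97 and 5.21 CPM in all 9 libraries.

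TSC2, whose protein carries the GTPase-activating activity of the complex, had 1 region, at chr16:2047867-2048368 over its start site. It was at 5.58, 8.81 and 5.38 CPM for DMSO, 6.54, 21.5 and 3.99 for osimertinib DTP, and 5.07, 5.08 and 23.6 for the combination. The groups overlapped, and the fold changes of 0.69 ± 0.71 and 0.76 ± 0.71 on the log2 scale were not called (edgeR adjusted p = 0.606 and 0.509). Without replicate 2 of osimertinib DTP the first became −0.26, and without replicate 3 of the combination the second became −0.38. TSC2 had the lowest level among the strongest start-site regions of the 8 genes, with a mean of 9.5 CPM over the 9 libraries, against 28.3 CPM for TSC1.

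The start-site windows of TSC1, TSC2 and LZTR1 are shown: those of TSC1 and TSC2 as the start sites of partners in 1 complex, and that of LZTR1 as a window that lies almost wholly inside a counted region. TSC2 has 2 windows in the table, of which the upstream one is shown, and the other lies wholly inside its counted region. The counted start-site region covered 80 bases of the TSC1 window, 168 of that of TSC2 and 288 of that of LZTR1. Each runs from 250 bases before to 50 bases after a RefSeq start (assembly GRCh38.p14) and is written 5′ to 3′ on the gene's strand, with motif matches on either strand in capitals. The TSC1 window is chr9:132944567-132944866 (minus strand), that of TSC2 is chr16:2047735-2048034 (plus strand) and that of LZTR1 is chr22:20982047-20982346 (plus strand).
TSC1: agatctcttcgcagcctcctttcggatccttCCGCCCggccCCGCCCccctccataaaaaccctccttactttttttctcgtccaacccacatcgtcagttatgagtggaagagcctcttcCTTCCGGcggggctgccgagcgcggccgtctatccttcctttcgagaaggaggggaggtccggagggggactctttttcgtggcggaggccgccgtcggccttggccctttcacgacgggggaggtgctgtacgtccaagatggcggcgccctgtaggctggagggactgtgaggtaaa
TSC2: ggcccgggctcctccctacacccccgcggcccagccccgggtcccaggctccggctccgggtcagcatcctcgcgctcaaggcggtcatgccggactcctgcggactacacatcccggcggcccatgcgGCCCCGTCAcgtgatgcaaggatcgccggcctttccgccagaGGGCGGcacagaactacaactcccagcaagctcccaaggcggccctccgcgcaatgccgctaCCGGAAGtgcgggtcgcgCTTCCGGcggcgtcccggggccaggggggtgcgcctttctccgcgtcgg
LZTR1: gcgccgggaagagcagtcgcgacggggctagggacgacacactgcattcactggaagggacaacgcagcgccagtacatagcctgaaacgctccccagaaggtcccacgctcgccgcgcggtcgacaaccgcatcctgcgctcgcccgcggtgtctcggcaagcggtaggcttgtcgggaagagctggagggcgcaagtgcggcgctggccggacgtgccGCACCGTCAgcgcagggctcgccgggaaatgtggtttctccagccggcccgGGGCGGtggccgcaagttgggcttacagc

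The capitals mark the core of the ETS motif (CCGGAAG), the GC box (GGGCGG) and the antioxidant response element to which NRF2 binds (ARE, TGACNNNGC). The TSC1 window held 1 ETS match and 2 GC boxes, that of TSC2 2 ETS matches, 1 ARE and 1 GC box, and that of LZTR1 1 ARE and 1 GC box, and none of these matches overlapped. Over all 35116 RefSeq windows of this length, 10.3% held the ETS letters, 45.0% the GC box and 13.3% the ARE. The other motifs searched, on both strands, were E2F (TTTCCCGC, TTTGGCGC, TTTCGCGC or TTTGCCGC), CRE (TGACGTCA), AP-1 (TGANTCA), NRF1 (GCGCATGCG) and the CCAAT box, and none of them was found in these 3 windows. All 8 genes had at least 1 window in the table, 10 in all. The GC content of the printed windows was 61.7% for TSC1, 73.0% for TSC2 and 68.7% for LZTR1.

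STK11 had the most regions and none was called. Its 16 regions ran from 29292 bp upstream to 11026 bp past the RefSeq start, and 8 of them lay upstream of the RefSeq gene, regions 1 to 6 assigned through a transcript with an earlier start. In osimertinib DTP against DMSO, 15 of the 16 fold changes were positive (median 0.44), and in the combination 14 were (median 0.77), which became 7 (median −0.04) without replicate 3 of the combination. The strongest region within 1 kb of a start site was region 2, at chr19:1177401-1177902, 28127 bp upstream of the RefSeq start. It was at 23.2, 22.1 and 18.4 CPM for DMSO, 36.2, 36.5 and 16.9 for osimertinib DTP, and 37.1, 31.3 and 30.3 for the combination. All combination libraries lay above all DMSO libraries, whereas replicate 3 of osimertinib DTP lay below them, and the fold changes of 0.49 ± 0.49 and 0.63 ± 0.49 were not called (edgeR adjusted p = 0.594 and 0.414).

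The strongest STK11 region of all, region 15, lay in an intron at chr19:1215262-1215763. It was at 34.0, 35.7 and 30.8 CPM for DMSO, 44.4, 82.8 and 27.8 for osimertinib DTP, and 41.6, 39.5 and 89.3 for the combination. The combination libraries were again all above DMSO, and the fold changes were 0.62 ± 0.53 and 0.76 ± 0.53 (edgeR adjusted p = 0.509 and 0.347). The smallest p among the STK11 regions belonged to region 4, an intronic region at chr19:1183574-1184075. It was at 23.8, 33.2 and 26.8 CPM in DMSO and at 42.3, 50.6 and 98.1 in the combination, a log2 fold change of 1.19 ± 0.53 (edgeR adjusted p = 0.129). It passed only when the annotated regions alone were tested (adjusted p = 0.0452) or with library quality weights (0.0346). The former called 7991 of 67387 regions higher in this comparison, and the latter 23.8% of all regions.

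Some STK11 regions inside the RefSeq gene differed widely between the combination libraries. Region 9, 750 bp past the start, was at 15.5, 9.93 and 17.4 CPM for DMSO, 20.1, 23.8 and 12.2 for osimertinib DTP, and 7.85, 4.5 and 68.4 for the combination. Replicates 1 and 2 of the combination were below all DMSO libraries and replicate 3 was above them. The same split was present at region 12, in an intron, with 1.59, 0.692 and 14.6 CPM in the combination against 4.23, 1.43 and 4.58 in DMSO, except that replicate 1 lay between the DMSO libraries. Without replicate 3 of the combination, region 12 was called lower against DMSO (−1.57, edgeR adjusted p = 0.0482), as were 17.3% of all regions. Library quality weights called regions 9 and 12 lower there (limma adjusted p = 0.0222 and 0.0178) and regions 2, 3 and 4 higher. They called 24.8% of all regions lower and 23.8% higher.

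NF1 was measured just past its start and at 7 regions inside the gene, none of which was called. The start-site region 1, at chr17:31095099-31095600, was at 13.6, 15.8 and 12.7 CPM for DMSO, 15.5, 42.8 and 9.39 for osimertinib DTP, and 16.2, 16.6 and 52.7 for the combination. The combination libraries lay above DMSO and the osimertinib DTP libraries overlapped with it, and the fold changes of 0.68 ± 0.63 and 1.02 ± 0.63 were not called (edgeR adjusted p = 0.553 and 0.289).

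A group of 5 NF1 regions far inside the gene, regions 4 to 8 at 222953 to 245324 bp past the start, was high in replicates 1 and 2 of the combination and low in replicate 3. Region 6, at chr17:31328059-31328560, was at 14.4, 26.6 and 16 CPM for DMSO, 18, 20.7 and 31.0 for osimertinib DTP, and 40.8, 60.1 and 7.67 for the combination. Region 5, the strongest NF1 region outside the class within 1 kb, at chr17:31327438-31327939, was at 19.1, 30.5 and 20.7 CPM for DMSO, 21.5, 34.7 and 29.0 for osimertinib DTP, and 43.1, 48.3 and 15.3 for the combination. With all libraries none of the 5 was called in the combination against DMSO, with log2 fold changes of 0.61 to 1.40. Region 4 came nearest (1.40 ± 0.66, edgeR adjusted p = 0.151), and the group was singled out after its values were seen.

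Without replicate 3 of the combination, 4 of these 5 regions were called higher against DMSO, where 18.4% of all regions were called higher. Regions 5, 6 and 7 lay under the same peak in every library with a peak at region 7, so their calls are not independent. Region 4, at 7.01, 8.29 and 5.18 CPM in DMSO and at 29.9 and 20.9 in the remaining combination libraries, had a log2 fold change of 1.89 ± 0.46 (edgeR adjusted p = 0.00296). Regions 6, 7 and 8 had values of 1.40, 1.67 and 1.80 (edgeR adjusted p = 0.0184, 0.00607 and 0.00595), and region 5 was not called in that fit. Library quality weights gave replicate 3 of the combination a weight of 0.144 and the other libraries 0.412 to 2.78. With them all 5 were called higher in the combination against DMSO, where 23.8% of all regions were called higher and 24.8% lower. In osimertinib DTP against DMSO these weights called region 8 higher (1.28, limma adjusted p = 0.0285), as they did 26629 of 157919 regions. Regions 2 and 3, 153970 and 154569 bp past the start, moved the other way in value: region 3 was at 11.9, 15.9 and 8.36 CPM in DMSO and at 7.68, 4.96 and 5.69 in osimertinib DTP, without overlap but not called (−0.97 ± 0.68, edgeR adjusted p = 0.402).

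**Figure D3:**
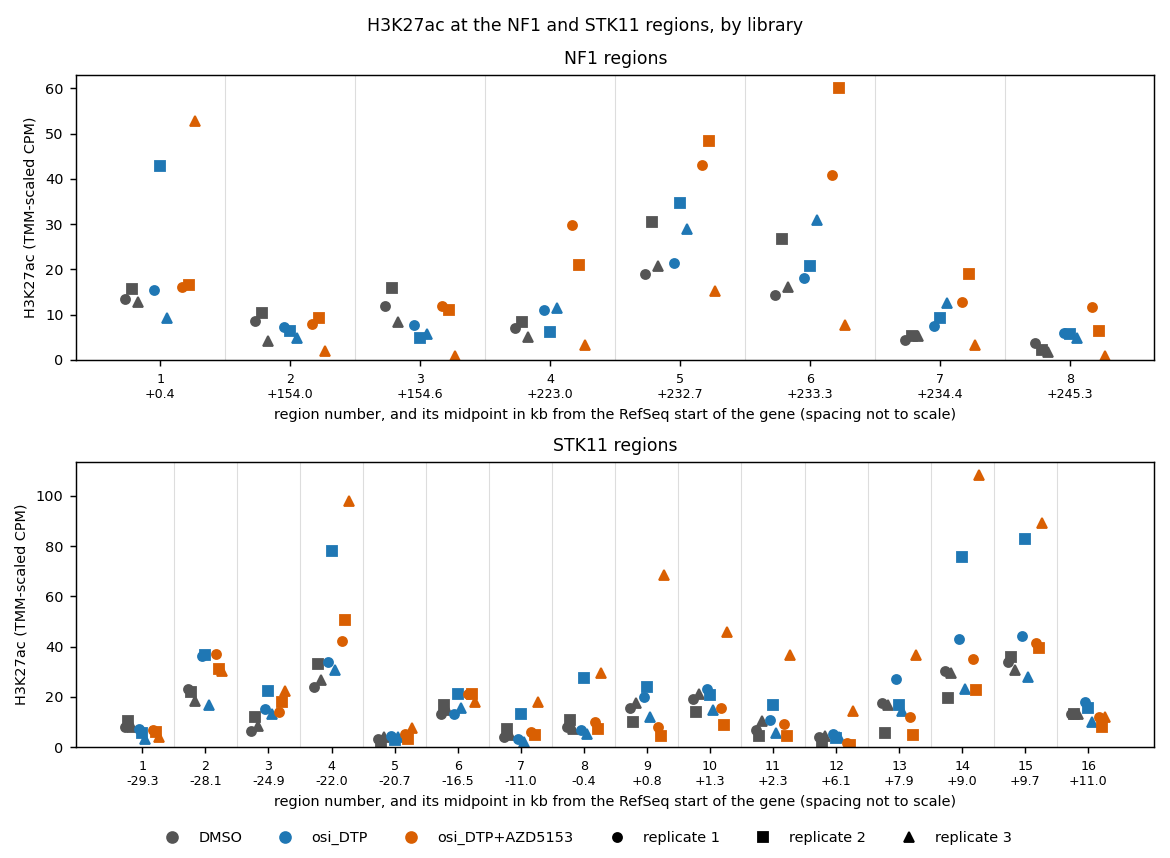
H3K27ac in TMM-scaled CPM (y axis) at the 8 NF1 regions and the 16 STK11 regions. The x axis gives the region number and its midpoint in kb from the RefSeq start of the gene, colour gives the group and shape the replicate. At NF1 regions 4 to 8, replicates 1 and 2 of the combination lie above all DMSO libraries and replicate 3 does not, and at STK11 regions 9 to 14 replicate 3 of the combination is the highest library.

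LZTR1 had a region over its start site and another 2449 bp upstream of it. The start-site region 2, at chr22:20981833-20982334, was at 27.2, 44.4 and 29.7 CPM for DMSO, 22.9, 59.9 and 16 for osimertinib DTP, and 32.5, 33.3 and 61.5 for the combination. The groups overlapped, and the fold changes were −0.04 ± 0.55 and 0.33 ± 0.55 (edgeR adjusted p = 0.98 and 0.734). The upstream region 1, at chr22:20979598-20980099, was at 5.84, 6.14 and 6.57 CPM for DMSO, 2.84, 5.78 and 3.19 for osimertinib DTP, and 3.38, 2.54 and 3.64 for the combination. Every DMSO library was above every treated library, and a peak was called in 3 DMSO libraries, 1 osimertinib DTP library and 0 combination libraries. The fold changes of −0.66 ± 0.53 and −0.96 ± 0.54 did not pass (edgeR adjusted p = 0.483 and 0.231).

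KEAP1 had the strongest start-site region of the 8 genes, with a mean of 63.1 CPM over the 9 libraries. Its single region, at chr19:10502261-10502762 and 845 bp past the RefSeq start, was at 46.2, 47.5 and 33.7 CPM for DMSO, 48.2, 108 and 28.4 for osimertinib DTP, and 58.2, 57.0 and 141 for the combination. All combination libraries were above all DMSO libraries, and osimertinib DTP overlapped with DMSO. The fold changes of 0.53 ± 0.55 and 1.01 ± 0.56 were not called (edgeR adjusted p = 0.609 and 0.228).

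KCTD5 had 1 region, just past its start site at chr16:2682555-2683056. It was at 13.4, 17 and 15.1 CPM for DMSO, 14.8, 38.7 and 11.3 for osimertinib DTP, and 6.85, 11 and 26.1 for the combination. Replicates 1 and 2 of the combination were below all DMSO libraries and replicate 3 was above them, as at TSC2, and the fold changes of 0.51 ± 0.61 and −0.06 ± 0.61 were not called (edgeR adjusted p = 0.67 and 0.96).

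RB1 had 1 region, just past its RefSeq start at chr13:48303758-48304259. It was at 6.56, 11 and 8.26 CPM for DMSO, 6.35, 26.6 and 3.89 for osimertinib DTP, and 5.96, 9.0 and 27.4 for the combination. The groups overlapped, and the fold changes of 0.51 ± 0.71 and 0.71 ± 0.72 were not called (edgeR adjusted p = 0.727 and 0.544). Leaving out replicate 2 of osimertinib DTP turned the first to −0.69, and leaving out replicate 3 of the combination turned the second to −0.21.

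**Figure D4:**
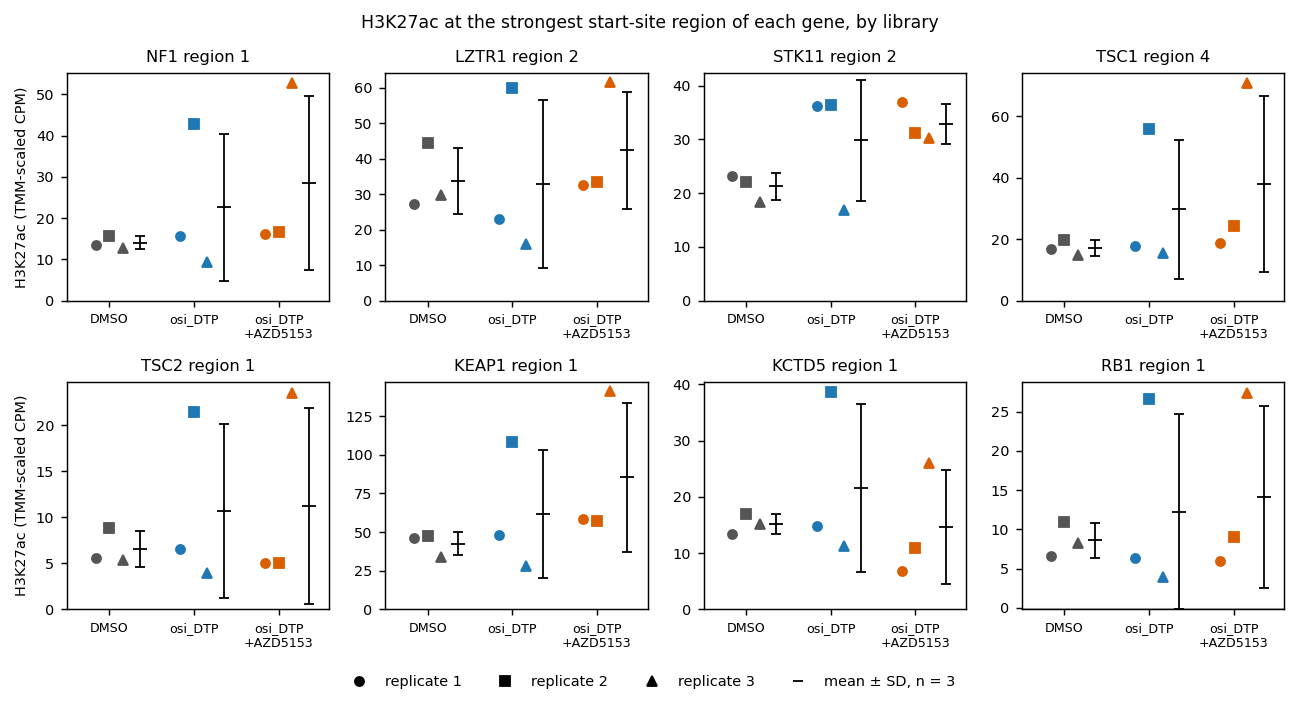
H3K27ac in TMM-scaled CPM (y axis, its own scale in each panel) at the strongest region within 1 kb of a start site for each of the 8 genes, by group on the x axis. Points are libraries, with replicate shown by shape, and black bars are the mean ± SD of 3 libraries. In 7 of the 8 genes, all but STK11, replicate 2 of osimertinib DTP and replicate 3 of the combination are the highest libraries. The STK11 region shown lies 28127 bp upstream of the RefSeq start.

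The start-site regions shared this pattern across libraries. In 7 of the 8 genes, the 2 highest libraries were replicate 2 of osimertinib DTP and replicate 3 of the combination, which also had the highest promoter shares over all genes. The exception was STK11, whose strongest such region lies 28127 bp upstream of the RefSeq start. At STK11 region 8, 382 bp upstream of that start, the same 2 libraries were the highest, at 27.5 and 29.5 CPM. Without replicate 2 of osimertinib DTP, the fold change of osimertinib DTP against DMSO became negative at KCTD5 (−0.16), KEAP1 (−0.10) and NF1 (−0.11), as at TSC2 and RB1. The order of the mean levels over the 9 libraries was KEAP1, LZTR1, TSC1, STK11, NF1, KCTD5, RB1 and TSC2. From LZTR1 (36.4 CPM) downward, neighbours in this order differed by less than the SD of the osimertinib DTP libraries of either gene. All genes share these libraries, so the SD is not the error of a difference between genes, and the order was not tested.

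Summed over all regions within 1 kb of a start site, none of the 8 genes was called in any comparison by edgeR. NF1 in the combination against DMSO was the only one with an unadjusted p under 0.05, which 1881 of all 12295 genes had there. DESeq2 called NF1 higher in that comparison, as it did 10.7% of all genes. It called LZTR1 lower in osimertinib DTP against DMSO, as it did 6.3%. The NF1 sum pools start-site region 1 with regions 4, 7 and 8, which lie 222953 to 245324 bp past the start. In the combination this sum was 70.7, 62.9 and 60.2 CPM. Replicate 3 was high at region 1 (16.2, 16.6 and 52.7 CPM) but low at region 4 (29.9, 20.9 and 3.26 CPM), as at regions 7 and 8. With library quality weights, limma called many more genes throughout. It called NF1 higher in osimertinib DTP against DMSO (9.82% of all genes higher), and in the combination against DMSO it called NF1 and KEAP1 higher and KCTD5 lower (25.3% higher and 16.3% lower). Between the treated groups it called NF1 higher and KCTD5 lower (18.5% and 6.79%). With edgeR, over all 12295 genes, 1.07% had a higher and 0.634% a lower promoter sum in osimertinib DTP than in DMSO, and 2.37% and 1.1% in the combination, with 0.0% called between the treated groups. The log2 fold changes of the 8 sums ran from −0.12 to 0.74 in osimertinib DTP (median 0.52 against 0.37 over all genes) and from −0.06 to 1.18 in the combination (median 0.73 against 0.45). The median over all genes depended on the scaling: it was 0.20 and 0.19 with unscaled library sizes, and 0.018 and −0.013 when libraries were scaled to their promoter total, with 0 of the 8 genes called under either. It also depended on single libraries: without replicate 2 of osimertinib DTP the medians in osimertinib DTP were −0.13 for the 8 genes and −0.18 for all, and without replicate 3 of the combination those in the combination were −0.13 and 0.020. Only NF1, STK11 and TSC1 had regions over 3 kb from a start site, and 0 of these 3 distal sums were called by edgeR or DESeq2 or had an unadjusted p under 0.05. Over 8143 genes, 12.6% of distal sums were higher and 13.4% lower in osimertinib DTP, 16.6% and 17% in the combination, and 0.0% differed between the treated groups. An unadjusted p under 0.05 was reached by 3128 of the 8143 in osimertinib DTP and by 3556 in the combination, each against DMSO. Between the treated groups 459 reached it.

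The wider pathways of the 8 genes were read at their promoter sums, in 6 lists. In osimertinib DTP against DMSO, 0 of 12 measured RAS brakes and RAS proteins, 0 of 12 CUL3 ligase genes, 0 of 11 genes around NRF2, 0 of 15 genes around LKB1, 0 of 17 genes of the TSC and mTORC1 pathway and 0 of 21 RB pathway genes were called by edgeR, with 2, 0, 2, 0, 1 and 1 of them at an unadjusted p under 0.05. Over all 12295 genes, 1259 had such a p in this comparison. The medians of the lists were 0.48, 0.30, 0.22, 0.59, 0.56 and 0.06 on the log2 scale, against 0.37 over all genes. In the combination against DMSO, 1 RAS-list gene and 1 NRF2-list gene were called higher and none of the other 4 lists had a call in either direction. Over all 12295 genes, 2.37% were called higher and 1.1% lower there. An unadjusted p under 0.05 was reached by 2, 0, 3, 3, 2 and 1 genes of the lists, against 1881 of all 12295. The medians were 0.69, 0.40, 0.85, 0.72, 0.60 and −0.19, against 0.45 over all genes. Between the treated groups, edgeR called 0 genes of these lists and 0 had an unadjusted p under 0.05, against 119 of all 12295 genes.

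The RAS-list gene was MRAS, a RAS-family protein that LZTR1 can bind. Its promoter sum was 7.55, 3.99 and 2.29 CPM for DMSO, 9.95, 50.4 and 10.3 for osimertinib DTP, and 20.8, 21.5 and 65.5 for the combination. All treated libraries lay above all DMSO libraries. It rose in the combination (log2 fold change 2.95 ± 0.74, edgeR adjusted p = 0.0279) and did not pass in osimertinib DTP (2.34 ± 0.73, edgeR adjusted p = 0.126). The call in the combination was lost without replicate 2 or 3 of DMSO (adjusted p = 0.186 and 0.188). Its fold change dropped to 2.18 in the combination without replicate 3 of that group and to 1.18 in osimertinib DTP without replicate 2 of that group, and in osimertinib DTP it passed in 5 of the 9 fits that left out a library.

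The NRF2-list gene was BACH1, a repressor that competes with NRF2 at its binding sites. Its promoter sum was 14.8, 12.2 and 10.6 CPM for DMSO, 31.7, 48.6 and 30.3 for osimertinib DTP, and 44.0, 41.2 and 52.7 for the combination. Again all treated libraries lay above all DMSO libraries. It rose in the combination (1.87 ± 0.51, edgeR adjusted p = 0.0426) and did not pass in osimertinib DTP (1.55 ± 0.50, edgeR adjusted p = 0.149). The call in the combination was lost when any DMSO library, replicate 1 of osimertinib DTP, or replicate 1 or 2 of the combination was left out (adjusted p of up to 0.332). In osimertinib DTP it passed in 1 of the 9 such fits (without replicate 3 of the combination).

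For each gene the promoter sum with the most similar levels was sought among 12294 other genes, by Pearson's r over the 9 libraries and as a description only. These were LIPA for NF1 (r = 0.988), TXN2 for LZTR1 (0.994), MIER3 for STK11 (0.974), ZNF672 for TSC1 (0.997), INTS10 for TSC2 (0.997), TOMM40 for KEAP1 (0.998), PSME1 for KCTD5 (0.986) and CHTOP for RB1 (0.995). The libraries share their depth and promoter share across genes. Without replicate 3 of the combination, LIPA, TOMM40 and CHTOP were again the nearest to NF1, KEAP1 and RB1, and the other 5 genes had another nearest gene.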

How the data were processed

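H3K27ac ChIP-seq was read from 9 libraries, with 1 pooled input left out of the tests. Per the labels, reads of 75 nt were processed with BWA 0.7.17, MACS2 2.2.6, featureCounts 2.0.0 and ChIPseeker 1.29.1 on hg38. The authors deposited raw read counts for 169637 regions, with no normalization, and gene symbols for 67387 of them. The authors also deposited a peak list per library, with each peak's fold enrichment and its q as −log10, of which only the position and the −log10 q were used. Whether duplicate reads were removed is not given in the sources used here. A region of this width can hold at most 1152 reads if only 1 is kept per position and strand, and counts of the 35 regions reached 784.

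Groups came from the sample titles. Counts of all regions were tested in a single fit of the 9 libraries with edgeR 4.0.16 (limma 3.58.1, R 4.3.3): filterByExpr at a minimum count of 10, which left 157919 regions, TMM scaling, and the robust quasi-likelihood test, two-sided, with Benjamini-Hochberg adjustment over all regions and a threshold of 0.05. Promoter sums (12295 genes) and distal sums (8143 genes) were tested in the same way with the library sizes of the region fit. Replicate counts differed beyond sampling noise in every pair (chi-square divided by its degrees of freedom at least 4.19). The code was tested on simulated counts. Other settings tried were DESeq2 1.42.0, unscaled library sizes, a loess offset with span 0.3, an unfiltered table, annotated regions only, fits of just the compared libraries, an adjusted p under 0.01, saturation-corrected counts, library quality weights (voom in limma), promoter classes up to 3 kb, a replicate block, leaving out each library and, chosen after seeing the data, scaling to the promoter total.

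Replicate numbers are shared by the groups, and the labels do not say what they mark. Deviations of same-numbered DMSO and osimertinib DTP libraries from their group means correlated at 0.361, 0.356 and 0.334 across regions, over the limit of 0.1 set for pairing. With this replicate block the same 2 regions of the 35 were called in osimertinib DTP against DMSO.

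Members and gene lists were chosen with earlier results of these data known. Values per library are given for each gene's strongest region within 1 kb of a start site, its strongest other region and every called region, and others were chosen after their values were seen. At most 3 called genes per pathway list are named. Regions are 502 bp wide. Gene bounds and start-site windows came from RefSeq (GRCh38.p14).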

Additional observations from a re-analysis of the deposited data

How the results depend on the processing

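The fall of the 2 TSC1 regions kept its direction under every alternative run, at −2.15 to −2.57 in osimertinib DTP against DMSO when a library was left out. At an adjusted p under 0.01, 0 regions of the 35 were called in osimertinib DTP against DMSO. Leaving out a library gave 0 to 2 calls there, and 1 (without replicate 3 of DMSO) to 7 (without replicate 3 of the combination) in the combination against DMSO, against 2 with all libraries. Library quality weights gave 13 calls in the combination against DMSO, 8 higher and 5 lower, where 23.8% of all regions were called higher and 24.8% lower.

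The replicate block left 2 called regions in each comparison with DMSO and 0 between the treated groups. The numbers did not pair the combination with the other groups, since the correlations of deviations were 0.0211, 0.551 and 0.347 with DMSO and 0.299, −0.0421 and −0.287 with osimertinib DTP. Under the block the log2 fold change of TSC1 region 1 in the combination became −0.47.

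Promoter sums had 0 calls with all libraries. In osimertinib DTP against DMSO, DESeq2 called 1 (LZTR1, lower) and quality weights 1 (NF1, higher). Between the treated groups quality weights called 2 (NF1 higher, KCTD5 lower). In the combination against DMSO, DESeq2 called 1 (NF1, higher), quality weights 3 (NF1 and KEAP1 higher, KCTD5 lower), and leaving out a library gave 0 to 1 (NF1, without replicate 2 of osimertinib DTP). Promoter classes up to 3 kb and scaling to the promoter total gave 0 calls in each comparison. Distal sums had 0 calls under every alternative run.

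Log2 fold changes that were not called turned sign in several regions. In osimertinib DTP against DMSO, leaving out a library gave −0.16 to 0.90 at KCTD5, −0.10 to 0.97 at KEAP1, −0.74 to 0.39 at LZTR1 region 2, −0.11 to 1.14 at NF1 region 1, −0.69 to 1.03 at RB1, −0.21 to 0.49 at TSC1 region 1 and −0.26 to 1.18 at TSC2. LZTR1 region 2 became 0.044 without a filter, 0.00384 with the compared libraries alone and 0.057 with saturation-corrected counts. RB1 became −0.37 with quality weights, and TSC1 region 1 became −0.026 with DESeq2 and −0.11 with quality weights.

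In the combination against DMSO, leaving out a library gave −0.78 to 0.26 at KCTD5, −0.044 to 0.58 at LZTR1 region 2, −0.21 to 1.05 at RB1, −1.66 to 0.55 at TSC1 region 1 and −0.38 to 1.08 at TSC2. KCTD5 became 0.017 with the compared libraries alone and LZTR1 region 2 became −0.077 with the loess offset. Quality weights gave −0.17 at RB1, −1.25 at TSC1 region 1 and −0.13 at TSC2. TSC1 region 1 was −0.20 without TMM and −0.014 with annotated regions alone. The causes were not tested.

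The promoter sums of MRAS and BACH1 in the combination against DMSO were also called by DESeq2 and with quality weights, but not with the replicate block (adjusted p = 0.214 and 0.0938). In osimertinib DTP against DMSO both were called by DESeq2 and with quality weights, and BACH1 also without TMM (adjusted p = 0.0400) and when scaled to the promoter total (0.0216). Of all 12295 genes, DESeq2 called 10.7% higher in the combination against DMSO and quality weights 25.3%. In osimertinib DTP against DMSO, DESeq2 called 751 of the 12295 higher and quality weights 1207. The fit without TMM called 139 higher there, and the scaling to the promoter total 354.

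With 3 libraries per group, the standard errors of the 35 log2 fold changes against DMSO were 0.49 to 0.82, and the TSC1 regions held as few as 1 read in a treated library.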

Other observations

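The NF1 gene also holds regions that the deposited table did not assign to NF1. Of 94 counted regions within the RefSeq bounds of the 8 genes, 25 were assigned to the gene itself, 12 to another gene and 57 to none. Of the 69 that were not assigned to the gene, 63 passed the filter on low counts and 3 were called in osimertinib DTP against DMSO, all of them in NF1, 2 higher and 1 lower, against 5.58% higher and 5.13% lower over all regions. They were chosen after their values were seen.

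The unannotated region at chr17:31189867-31190368, 95140 bp past the start of NF1, held 1, 2 and 3 reads for DMSO, 19, 37 and 35 for osimertinib DTP and 29, 43 and 11 for the combination, and all treated libraries lay above DMSO. Its log2 fold change was 4.05 ± 0.77 in osimertinib DTP (edgeR adjusted p = 0.00534) and 4.00 ± 0.77 in the combination (edgeR adjusted p = 0.0030). Leaving out replicate 2 of DMSO ended the first call (adjusted p = 0.0538), and the second was kept in all 9 fits that left out a library. Its neighbour at chr17:31189210-31189711 held 4 reads in each DMSO library, 18, 6 and 42 for osimertinib DTP and 29, 27 and 5 for the combination. Its log2 fold changes were 2.50 ± 0.78 and 2.56 ± 0.78 (edgeR adjusted p = 0.0480 and 0.0313), and the first was lost in 7 of 9 fits that left out a library, under the replicate block (adjusted p = 0.0741) and without TMM (0.0784). The second was lost in 5 of 9 such fits (adjusted p of up to 0.118) and without TMM (0.0693).

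The region that was lower, at chr17:31313152-31313653, was assigned to EVI2B, a gene that lies within an intron of NF1. It held 68, 72 and 56 reads for DMSO, 16, 12 and 16 for osimertinib DTP and 30, 14 and 14 for the combination, without overlap between DMSO and the treated libraries. It fell by 1.99 on the log2 scale in osimertinib DTP (SE 0.55, edgeR adjusted p = 0.0282), and its value of −1.39 ± 0.54 in the combination did not pass (edgeR adjusted p = 0.0814). It passed there with DESeq2 (0.0411), annotated regions alone (0.0387), quality weights (0.0114) and without replicate 3 of the combination (0.0279). The call in osimertinib DTP was lost in 6 of 9 fits that left out a library. Between the treated groups none of the 63 regions was called by edgeR.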
